A study of Mus musculus with 12 samples.

Results

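The 31 genes described here encode enzymes and regulators of sterol and fatty acid synthesis, and they were taken by name from these pathways, without use of any measured value. All 31 were among the 16640 genes of the table and all 31 passed the filter on low values. They comprise 18 enzymes of sterol synthesis, 4 regulators or carriers of sterols (Srebf1, Srebf2, Insig1 and Stard4) and 9 enzymes of fatty acid synthesis. Bulk RNA-seq was made from the microdissected arcuate nucleus (ARC), a cell group at the base of the hypothalamus, of female mice that were all 27 weeks old. Every animal carried loxP-flanked Esr1, the gene for oestrogen receptor alpha: controls were Esr1fl/fl, and mutants were Esr1Nkx2-1Cre, in which a Cre recombinase under Nkx2-1, a transcription factor gene of the ventral forebrain, deletes Esr1 in cells with that history. Mice ate chow throughout or a high-fat diet (HFD) for 17 weeks, giving 3 control and 4 mutant libraries on chow and 2 control and 3 mutant libraries on HFD, numbered within each group. The labels do not say whether each library came from 1 animal or from a pool, so p-values measure the spread between these libraries.

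Sterols and fatty acids are both built from acetyl-CoA. In the sterol branch, acetyl-CoA units are joined to mevalonate, converted to isoprenoid units, condensed to squalene, closed to a ring and trimmed to cholesterol. In the fatty acid branch, acetyl-CoA is made from citrate, carboxylated and elongated to palmitate, and elongases and desaturases then alter chain length and saturation. Both branches are driven by SREBP transcription factors, which Insig proteins hold in the endoplasmic reticulum when sterols are plentiful. The brain makes nearly all of its own cholesterol, because the lipoproteins of blood do not cross the blood-brain barrier, and glia supply much of it.

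Values are the deposited abundance signal, whose exact scaling is not stated. Levels are set side by side between genes on the reading that it is close to a TPM, scaled for gene length and depth. Column totals of the signal ran from 922172 to 1254999, with the highest in control chow 2. The number of genes listed at 0 ran from 201 to 1768, with the highest in mutant chow 3. Read depth is unknown. Esr1 had signals of 17.8, 7.29 and 19.8 in control chow, 6.05, 3.15, 1.93 and 1.65 in mutant chow, 15.3 and 22.4 in control HFD and 10.7, 16.6 and 11.9 in the libraries labelled mutant HFD. The values of the libraries labelled mutant HFD lay above all 4 of mutant chow and overlapped those of control HFD, so the Esr1 level does not tell these libraries from controls, and every comparison that uses them rests on the label. The ARC markers Agrp, Npy, Pomc and others were present in every group. Pituitary hormone transcripts summed to 498.6 to 5479 in control chow and to 104.4 to 1329 in control HFD, and oligodendrocyte markers to 1331 to 3946 in control chow and 1897 to 6027 in mutant chow, a wide range within groups. In bulk tissue, fewer cells of a type and less RNA per cell cannot be told apart.

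The most abundant of the 31 transcripts was Scd2, a stearoyl-CoA desaturase that adds the first double bond to saturated fatty acids, with a signal between 373 and 857 over the 12 libraries and a mean of 581. Its levels were 705, 373 and 505 in control chow, 462, 662, 483 and 613 in mutant chow, 857 and 476 in control HFD and 471, 594 and 774 in the libraries labelled mutant HFD, and the 4 groups overlapped. Fads2, the delta-6 desaturase of polyunsaturated fatty acid synthesis, followed at a mean of 164, and Fasn, the synthase that builds palmitate, at 134. The next places were taken by Srebf1 (115), Fads1 (111), Acly (111) and Scd1 (111), whose ranges over libraries overlapped throughout. The highest of the sterol enzymes was Hmgcs1 at 104, and Hsd17b7, a ketosteroid reductase late in the pathway, was the lowest of all at 4.601, with a range of 3.001 to 7.18. Scd1 and Scd2 are close paralogues, and the split of shared reads between them cannot be judged from these values.

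**Figure D1:**
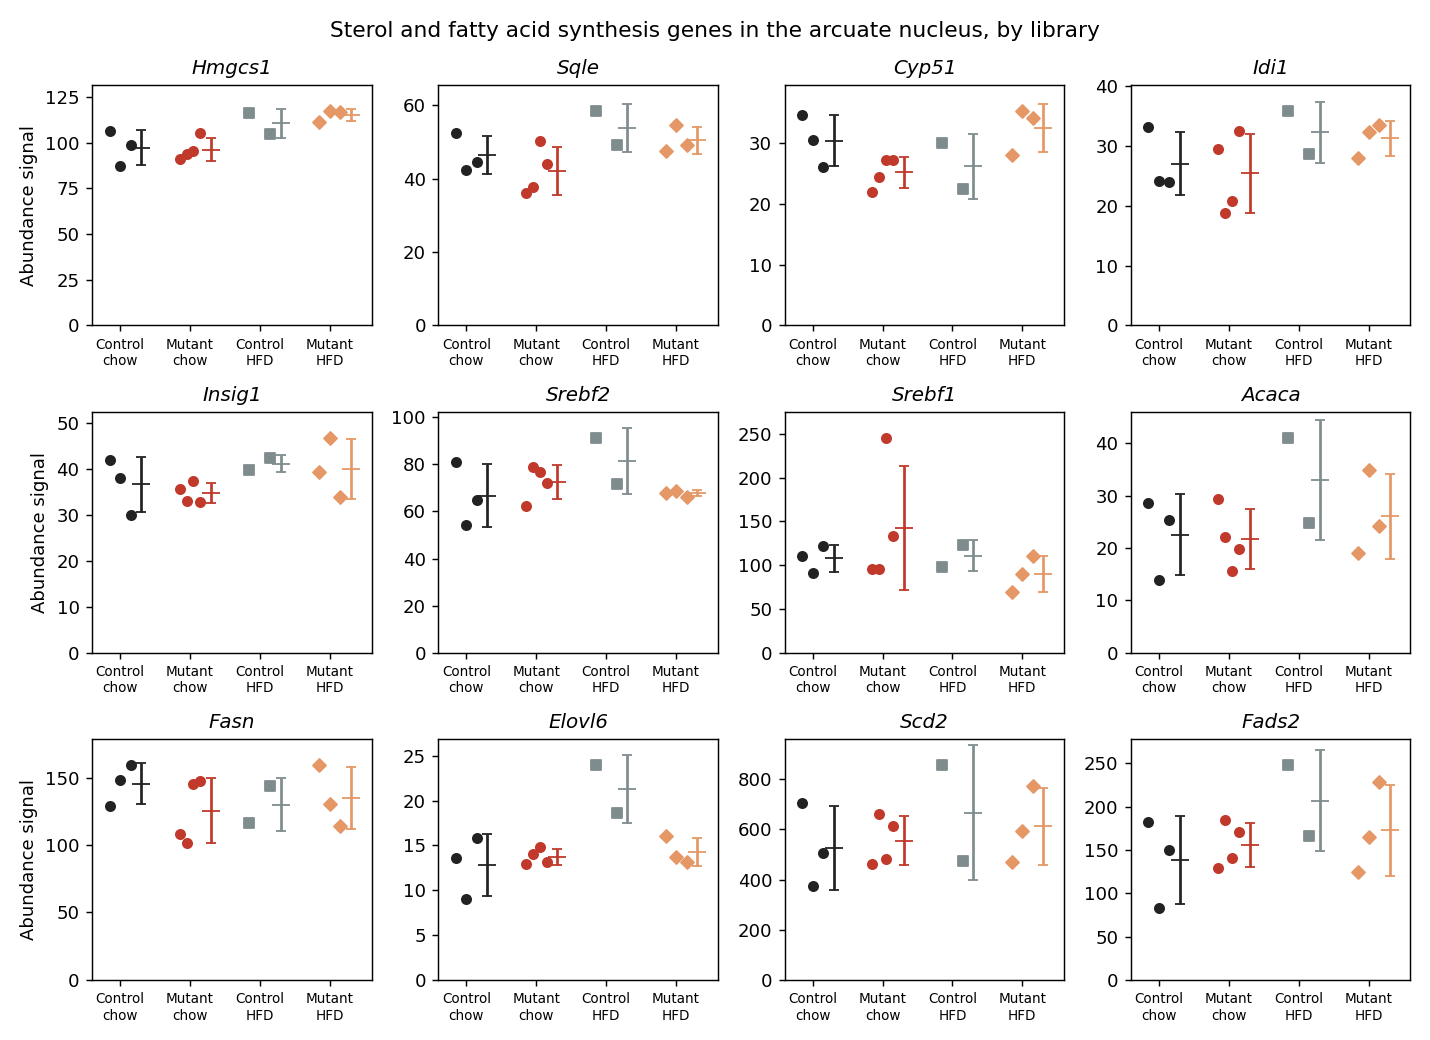
Abundance signal (vertical axes, linear from 0) of 12 of the 31 genes in each of the 12 libraries, by genotype and diet, with points for libraries and bars for the group mean ± SD. Hmgcs1 in the libraries labelled mutant HFD lies above all mutant chow libraries, Elovl6 in both control HFD libraries lies above all control chow libraries, and most other groups overlap.

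The sterol enzymes sat slightly higher on HFD in the mutant libraries, but no single gene passed the test. Of the 18 enzymes, 13 had a log2 difference above 0 and 5 below. Leaving out 1 library, which differed by gene, took Mvd, Fdps, Ebp and Sc5d below 0, and Mvk, Pmvk and Tm7sf2 above 0. The median difference was 0.21 on the log2(value + 1) scale, beside -0.02 over all 15801 genes tested. In limma, 0 of the 31 genes had an adjusted p under 0.05, where 0.0190% of all genes did, and 0 had an unadjusted p under 0.05, where 5.37% did. The adjusted p-values of the 31 genes ran from 0.916 to 0.995. For 29 of the 31 the 95% interval stayed inside a 2-fold change in either direction; those of Lss and Srebf1 did not.

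Hmgcs1, the cytosolic HMG-CoA synthase that makes the precursor of mevalonate (ENSMUSG00000093930, chr13:119690379-119708260, plus strand, GRCm38), had signals of 90.8, 93.7, 95.2 and 105 in mutant chow and 112, 117 and 117 in the libraries labelled mutant HFD. These groups did not overlap, and the log2 difference was 0.26 ± 0.13 (SE) with an adjusted p of 0.916. Cyp51, the lanosterol demethylase, was at 22.0002, 24.4, 27.1 and 27.2 in mutant chow and 27.98, 35.3 and 34.1 in those labelled mutant HFD, again without overlap, a difference of 0.35 ± 0.19 (SE). Hmgcs1 and Cyp51 were the 2 members whose libraries all lay higher on HFD, where 3.11% of all genes did. Lss, the synthase that closes the ring of lanosterol, was the 1 member lying wholly lower, where 4.88% of all genes did: its signals were 19.05, 9.72, 10.4 and 17.9 in mutant chow and 8.52, 9.25 and 6.76 in those labelled mutant HFD, a difference of -0.69 ± 0.39 (SE) with an adjusted p of 0.92.

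Sqle, the squalene epoxidase at a rate-limiting step after mevalonate, was at 36.1, 37.8, 50.4 and 43.99 in mutant chow and 47.4, 54.6 and 49.2 in those labelled mutant HFD. One mutant chow library lay among the HFD values, and the log2 difference was 0.27 ± 0.17 (SE). The largest differences above 0 after Cyp51 were those of Idi1, the isomerase of isoprenoid units, at 0.32 ± 0.22 (SE), and of Sqle. Nsdhl, which removes a carbon from the sterol ring, had 0.26 ± 0.25 (SE), and Fdps, which makes farnesyl diphosphate, had 0.25 ± 0.24 (SE). The difference of Fdps rested on mutant chow 3, without which it was -0.00035. Acat2, the thiolase at the start of the pathway, Msmo1, a methylsterol oxidase, Fdft1, the squalene synthase, and Hsd17b7 lay between 0.20 and 0.23. Mvd, Sc5d and Ebp were at 0.18, 0.09 and 0.05. Below 0 stood, beside Lss, the mevalonate kinases Mvk and Pmvk, the sterol reductase Tm7sf2 and Dhcr7, which makes cholesterol in the last step of one route, between -0.12 and -0.04.

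In controls the same diet contrast, which shares no library with that in mutants, gave a sterol enzyme median of 0.20. The median of all genes was -0.01, and 14 sterol enzymes were above 0 and 4 below. Leaving out 1 library, which differed by gene, took Lss, Ebp, Hsd17b7, Tm7sf2 and Mvd below 0, and Pmvk and Msmo1 above 0. Without control HFD 1 the sterol median was 0.13. Rescaling every library to the same total moved the median of all genes in this contrast to 0.12 and that of the sterol enzymes to 0.34. By limma 0 members passed an adjusted p of 0.05, where 0% of all genes did, and 1 had an unadjusted p under 0.05, where 3.54% did. That member was Elovl6, of the fatty acid branch. Groups lay apart for 6 members: Mvk, Fdft1, Nsdhl, Sc5d and Elovl6 were higher in both HFD libraries than in all 3 chow libraries, where 6.32% of all genes were, and Dhcr7 was lower, where 7.76% were. With 2 libraries on HFD the intervals of 8 of the 31 genes reached a 2-fold change.

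Among these, Nsdhl was at 19.2, 19.96 and 12.8 in control chow and 22.8 and 27.6 in control HFD, a log2 difference of 0.54 ± 0.30 (SE). Mvk was at 25.9, 22.5 and 17.4 and 29.1 and 28.97, a difference of 0.41 ± 0.27 (SE), but in mutants it was -0.08 ± 0.23 (SE). Dhcr7 was at 28.7, 33.3 and 31.7 in control chow and 24.4 and 23.9 in control HFD, a difference of -0.36 ± 0.20 (SE), and at 25.9, 29.96, 29.5 and 35.01 in mutant chow and 26.5, 25.9997 and 30.04 in those labelled mutant HFD, which overlapped. Hmgcs1 was at 106, 87.1 and 98.5 in control chow and 116 and 105 in control HFD, where one chow library lay between the HFD values, a difference of 0.19 ± 0.15 (SE). Sqle was at 52.3, 42.4 and 44.7 and 58.5 and 49.2, a difference of 0.21 ± 0.20 (SE). Cyp51, which lay above 0 in mutants, lay below 0 in controls, with 34.5, 30.4 and 26.1 on chow and 29.9 and 22.4 on HFD, and so did Msmo1, at -0.26 ± 0.24 (SE). Pmvk was below 0 in both genotypes, at -0.05 ± 0.26 (SE) in mutants and -0.28 ± 0.31 (SE) in controls. Lss was at 9.35 and 28.9 in the control HFD libraries, the lowest and the highest value of both control groups.

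**Figure D2:**
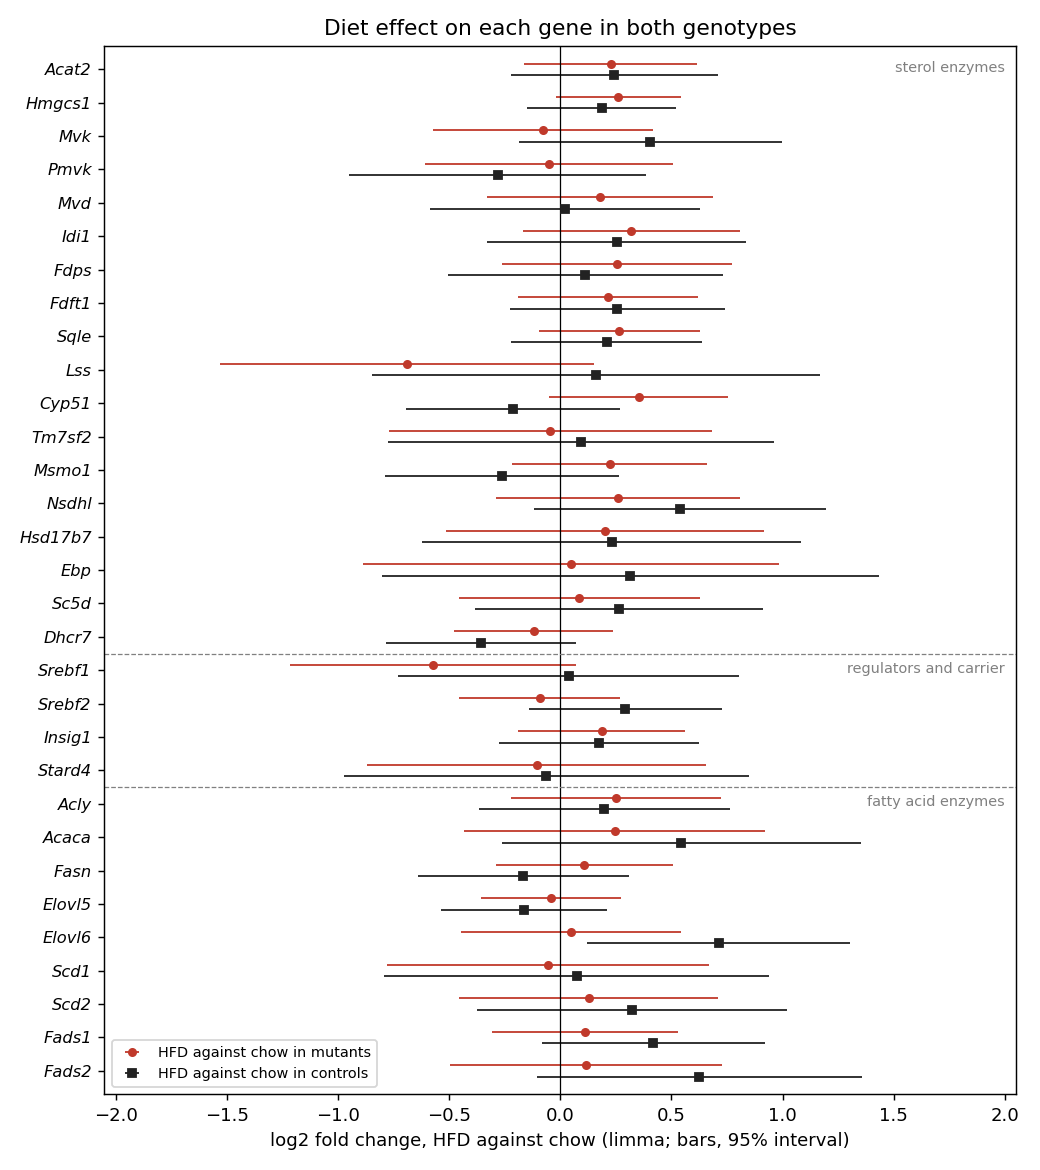
The log2 difference between HFD and chow (horizontal axis) for each of the 31 genes, in mutants (red circles) and controls (black squares), with 95% intervals from limma; dashed lines part sterol enzymes, regulators and carrier, and fatty acid enzymes. Most sterol enzymes lie to the right of 0 in both genotypes, and the interval of Elovl6 in controls is the only one that leaves 0 out.

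Between genotypes, 18 of the 31 genes (58.1%) had a diet difference above 0 in both and 4 had one below 0 in both, while 25.3% of all genes tested were above 0 in both. By branch this held for 11 of 18 sterol enzymes, 6 of 9 fatty acid enzymes and 1 of 4 regulators. Members of a pathway can move together between libraries, so these shares describe the 31 genes and carry no test. Averaged over the genotypes, a contrast added after the values had been seen, the sterol enzyme median was 0.18 and that of all genes -0.02. In that contrast 0 members passed an adjusted p of 0.05, where 0% of all genes did, and 1 had an unadjusted p under 0.05, where 5.29% did. It was Hmgcs1, with a log2 difference of 0.22 ± 0.10 (SE), a 95% interval of 0.00428 to 0.44, an unadjusted p of 0.046 and an adjusted p of 0.886. This p was under 0.05 in 8 of 21 alternative settings and rose to as much as 0.14, and without control chow 2 the difference was 0.18 with an unadjusted p of 0.082. In this contrast every interval of the 31 genes stayed inside a 2-fold change.

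The mean log2 level of the 18 sterol enzymes varied little between libraries. It was 4.97, 5.0003 and 4.92 in control chow, 4.88, 4.85, 4.90 and 4.99 in mutant chow, 5.03 and 5.14 in control HFD and 4.98, 5.06 and 4.99 in the libraries labelled mutant HFD. The group means were 4.97 in control chow and 5.09 in control HFD. They were 4.91 in mutant chow and 5.01 in the libraries labelled mutant HFD. In each genotype these differ between diets by less than the median gene did, at 0.20 in controls and 0.21 in mutants. Within controls both HFD libraries lay above the 3 chow libraries, whereas within mutants 1 chow library, mutant chow 4, lay above the lowest HFD library. The pooled SD within groups was 0.053 for this mean and 0.23 for that of the 9 fatty acid enzymes. The latter averages fewer genes, and its gene pairs had a median correlation within groups of 0.36, beside -0.0043 for sterol pairs. The part of each in the SD was not tested. For single genes the spread was wider: the median SD within groups was 0.28 for the sterol enzymes, 0.32 for the regulators, 0.30 for the fatty acid enzymes and 0.35 for tested genes at least as abundant as the lowest member. Hmgcs1 was the steadiest at 0.10 and Ebp, an isomerase of the sterol ring, the most variable at 0.65. Dhcr7 and Elovl5 both stood at 0.13.

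**Figure D3:**
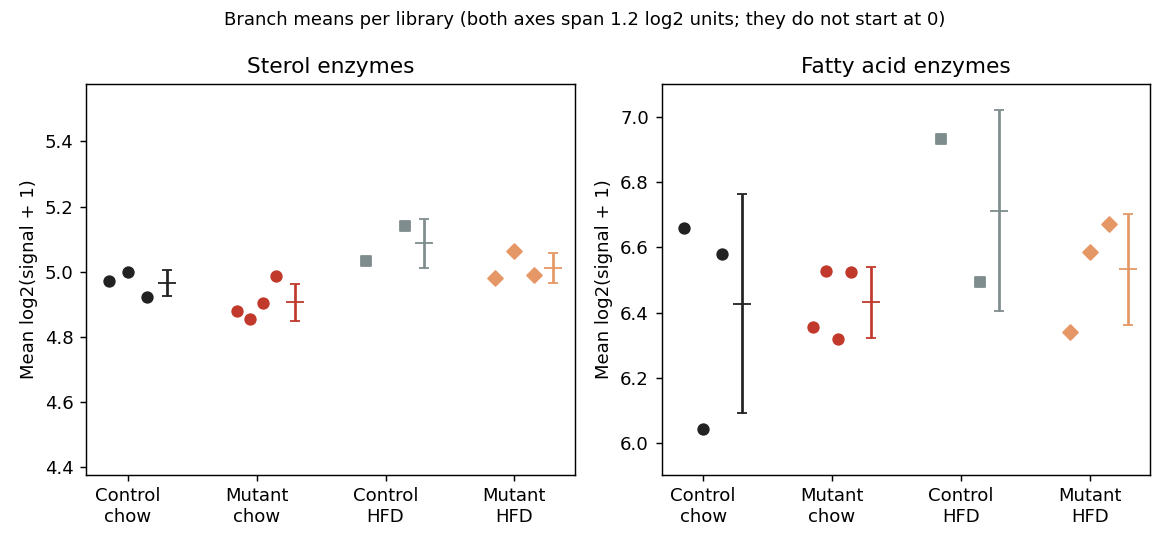
Mean log2(signal + 1) of the 18 sterol enzymes (left) and the 9 fatty acid enzymes (right) in each library by group, with bars for the group mean ± SD; both axes span 1.2 log2 units and do not start at 0. Sterol means run from 4.85 to 5.0003 on chow and from 4.98 to 5.14 on HFD, and fatty acid means from 6.04 to 6.93 over all libraries.

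The 4 regulators and carriers showed no common direction. Their median diet difference was -0.10 in mutants and 0.11 in controls. Srebf2, the factor that chiefly drives sterol genes, was at 80.99, 54.2 and 64.9 in control chow, 62.3, 79.1, 76.7 and 72.1 in mutant chow, 91.3 and 71.6 in control HFD and 67.9, 68.9 and 66.4 in the libraries labelled mutant HFD. Its control HFD values lay above those labelled mutant HFD, with a log2 difference of -0.25 ± 0.20 (SE) for mutant against control, and its diet groups overlapped in both genotypes. Srebf1, whose products chiefly drive fatty acid genes, was at 111, 91.3 and 122 in control chow, 95.5, 95.3, 245 and 134 in mutant chow, 98.1 and 123 in control HFD and 69.2, 89.6 and 110.2 in the libraries labelled mutant HFD. A single library, mutant chow 3, carried the value of 245.4, and the diet difference in mutants was -0.57 ± 0.30 (SE) with an adjusted p of 0.916. Without mutant chow 3 it was -0.28.

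Insig1, a sterol-responsive retention factor for SREBP, was at 41.9, 38.03 and 29.98 in control chow, 35.6, 33.1, 37.5 and 32.8 in mutant chow, 39.8 and 42.5 in control HFD and 39.3, 46.8 and 33.9 in the libraries labelled mutant HFD. The diet groups overlapped within each genotype, with diet differences of 0.19 ± 0.17 (SE) in mutants and 0.17 ± 0.21 (SE) in controls. Stard4, a carrier that moves cholesterol between membranes, had means ± SD of 14.4 ± 6.85 over the 3 control and 15.2 ± 4.98 over the 4 mutant libraries on chow, and of 12.7 ± 1.18 over the 2 control and 14.1 ± 4.57 over the 3 libraries labelled mutant on HFD, and all groups overlapped.

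In the fatty acid branch, 7 of the 9 enzymes were above 0 and 2 below in each genotype, with a median diet difference of 0.11 in mutants and 0.32 in controls. The control value moved with single libraries: without control chow 2, whose mean of 6.04 was the lowest of the 12, it was 0.10, without control HFD 1 it was 0.10, without control chow 1 it was 0.56 and without control HFD 2 it was 0.74. The value in mutants lay between 0.015, without mutant HFD 3, and 0.20, without mutant HFD 1. Elovl6, the elongase that lengthens palmitate (ENSMUSG00000041220, chr3:129532355-129638495, plus strand, GRCm38), was at 13.6, 9.04 and 15.9 in control chow and 23.97 and 18.7 in control HFD, without overlap. The log2 difference was 0.71 ± 0.27 (SE), with a 95% interval of 0.12 to 1.304, an unadjusted p of 0.022 and an adjusted p of 0.998, so it did not pass the test over all genes. Without control chow 2 the difference was 0.50 with an unadjusted p of 0.078, and without control HFD 1 it was 0.54 with an unadjusted p of 0.15. In mutants Elovl6 was at 12.9, 14.1, 14.8 and 13.1 on chow and 16.01, 13.7 and 13.1 on HFD, a difference of 0.05 ± 0.23 (SE).

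Acaca, the acetyl-CoA carboxylase that commits carbon to fatty acids, was at 28.6, 13.8 and 25.3 in control chow, 29.3, 22.1, 15.6 and 19.7 in mutant chow, 41.02 and 24.8 in control HFD and 19.02, 34.8 and 24.2 in the libraries labelled mutant HFD. All groups overlapped, and the diet difference was 0.24 ± 0.31 (SE) in mutants and 0.54 ± 0.37 (SE) in controls. Fasn was at 129, 149 and 159 in control chow, 108, 101, 145 and 148 in mutant chow, 116 and 144 in control HFD and 159, 131 and 114 in the libraries labelled mutant HFD. Its diet difference was 0.11 ± 0.18 (SE) in mutants and -0.17 ± 0.22 (SE) in controls, both smaller than their errors. Acly, which makes acetyl-CoA from citrate, differed by 0.25 ± 0.22 (SE) in mutants and 0.20 ± 0.26 (SE) in controls. Elovl5, an elongase of polyunsaturated chains, was below 0 in both genotypes, at -0.04 ± 0.14 (SE) and -0.16 ± 0.17 (SE).

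Scd1 was at 144, 65.03 and 116 in control chow, 87.8, 137, 92.4 and 125 in mutant chow, 159 and 74.2 in control HFD and 75.4, 99.1 and 152 in the libraries labelled mutant HFD. The lowest and the highest value of each diet were more than 2-fold apart, and the diet differences were -0.06 ± 0.33 (SE) in mutants and 0.07 ± 0.40 (SE) in controls. Fads2 was at 182, 82.5 and 149.8 in control chow, 129, 184, 140.2 and 170.3 in mutant chow, 248 and 166 in control HFD and 124, 165 and 229 in the libraries labelled mutant HFD, with diet differences of 0.12 ± 0.28 (SE) and 0.63 ± 0.34 (SE). Fads1, the delta-5 desaturase, had means ± SD of 101 ± 17.99 over the 3 control and 105 ± 14.8 over the 4 mutant libraries on chow, and of 137 ± 42.2 over the 2 control and 113 ± 14.9 over the 3 libraries labelled mutant on HFD. For Scd2 the diet differences were 0.13 ± 0.27 (SE) and 0.32 ± 0.32 (SE). All 4 desaturases overlapped between diets in both genotypes.

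On chow, no gene of the 31 passed the test between genotypes. The median difference of mutant against control was -0.07 for the sterol enzymes, or 0.02 with libraries rescaled to the same total, and 0.06 for the fatty acid enzymes, or -0.14 without control chow 2 and 0.18 without control chow 1. Without mutant chow 2 the sterol median was -0.00094. Of the 31 genes 0 passed an adjusted p of 0.05 in limma, where 0.0190% of all genes did, 0 had an unadjusted p under 0.05, where 4.34% did, and 0 had groups lying apart, where 4.51% did. The smallest unadjusted p was that of Msmo1, whose signals were 65.2, 97.8 and 70.7 in control chow and 56.6, 58.9, 67.4 and 47.5 in mutant chow, a difference of -0.42 ± 0.20 (SE) with an adjusted p of 0.982. For 30 of the 31 genes the interval stayed inside a 2-fold change, Ebp being the exception. Marker lists differed between genotypes as well. All 5 tested markers of neighbouring nuclei were above 0, with a median of 1.44 and 1 at an unadjusted p under 0.05. All 6 microglial markers were above 0, with a median of 0.48 and 4 at such a p, where 4.34% of all genes were. All 11 oligodendrocyte markers were above 0, with a median of 0.65 and 0 at such a p. Astrocyte and tanycyte medians were -0.05 and -0.09. The part of these cells was not tested.

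On HFD the median difference of mutant against control was -0.05 for the sterol enzymes and -0.09 for the fatty acid enzymes, and leaving out control HFD 1 turned the sign of both, to 0.03 and 0.02. Leaving out control HFD 2 took the fatty acid median to -0.57. Again 0 members passed an adjusted p of 0.05, where 0.00633% of all genes did, and 0 had an unadjusted p under 0.05, where 2.21% did. The groups lay apart for 6 of the 31 genes, where 15.7% of all genes did with 2 against 3 libraries. Mvd, which makes isopentenyl diphosphate, and Dhcr7 were higher in the libraries labelled mutant HFD, and Mvk, Lss, Srebf2 and Elovl6 were lower. Lss had a difference of -0.95 ± 0.46 (SE), with an adjusted p of 1, and this value rested on the control libraries: it was -0.18 without control HFD 2 and -1.72 without control HFD 1. For Elovl6 it was -0.54 ± 0.27 (SE). The 5 tested markers of neighbouring nuclei were again all above 0, with a median of 1.75 and 1 at an unadjusted p under 0.05. All 11 oligodendrocyte markers were below 0, with a median of -0.36 and 0 at such a p. The part of these cells in the genotype values was not tested.

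The interaction, the diet difference in mutants minus that in controls, was 0.02 in the median for sterol enzymes, with 9 of the 18 on each side of 0, and -0.19 for fatty acid enzymes. The latter was -0.63 without control HFD 2 and 0.05 without control HFD 1. With libraries rescaled to the same total the sterol median was -0.14, beside -0.18 for all genes. No member had an adjusted p under 0.05, where 0% of all genes did, and 0 had an unadjusted p under 0.05, where 3.44% did. Cyp51 had the smallest unadjusted p, at 0.072, with an interaction of 0.57 ± 0.29 (SE), and Elovl6 had -0.66 ± 0.35 (SE) with an unadjusted p of 0.086. For 14 of the 31 genes the interval of the interaction stayed inside a 2-fold difference in either direction, and for the other 17 it reached that size.

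The neighbouring parts of lipid metabolism were read from 5 further lists. None of their genes passed an adjusted p of 0.05 in any comparison by limma. In mutants 3 of the 12 genes of sterol efflux and turnover had an unadjusted p under 0.05, all lower on HFD, where 3.94% of all genes did so, and the median difference of that list was -0.25, with 10 of 12 genes below 0, opposite in sign to the sterol enzymes. Nr1h2, which encodes the oxysterol receptor LXR beta, was at 68.8, 62.001, 106 and 57.1 in mutant chow and 45.1, 36.6 and 46.9 in those labelled mutant HFD, a log2 difference of -0.73 ± 0.21 (SE) with an unadjusted p of 0.0046 and an adjusted p of 0.694. The others were Abca1, a cholesterol exporter, at -0.73 ± 0.29 (SE), and Cyp27a1, a sterol hydroxylase, at -0.91 ± 0.34 (SE). In controls 0 of the 12 had an unadjusted p under 0.05 and the median was -0.0025.

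The 8 genes of SREBP processing had medians of 0.01 in mutants and 0.12 in controls, where 1 gene, Scap, the SREBP escort, had an unadjusted p under 0.05. For 7 other genes of sterol synthesis the medians were -0.0093 and 0.01, with 0 of 7 at an unadjusted p under 0.05 in either genotype. For 18 other genes of fatty acid synthesis they were -0.02 and 0.11, with 1 lower in mutants. For 13 genes of fatty acid oxidation they were -0.05 and 0.0061, with 1 higher in mutants.

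Marker lists of other cell types also differed between diets in their medians. The widest median was that of the 3 pituitary hormone genes tested, at -1.93 in controls with 3 below 0. In mutants it was -0.19 with 2 below 0. In controls 1 of these 3 had an unadjusted p under 0.05 by limma, where 3.54% of all genes did. The 5 tested markers of neighbouring nuclei had medians of 0.57 in mutants, with 3 above 0, and -0.0051 in controls, with 2 above 0. The part of either tissue was not tested. The 5 neuronal markers lay above 0 on HFD in both genotypes, all 5 of them in each, with medians of 0.26 in mutants and 0.29 in controls, near those of the sterol enzymes, and 0 of 5 had an unadjusted p under 0.05 in either. Their summed signal was 1041 to 1386 in mutant chow and 1243 to 1487 in mutant HFD, and 1018 to 1284 in control chow and 1073 to 1708 in control HFD. The part of neurons in the sterol enzyme values was not tested.

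All 11 oligodendrocyte markers were below 0 on HFD in mutants, with a median of -0.65, and all 11 were above 0 in controls, with a median of 0.35, and 0 of 11 had an unadjusted p under 0.05 in either. Their summed signal was 1897 to 6027 in mutant chow, 1993 to 2939 in mutant HFD and 1912 to 3879 in control HFD. With the oligodendrocyte score as a covariate the sterol enzyme median in mutants was 0.21. The part of oligodendrocytes in the sterol enzyme values was not tested. The 8 ARC neuropeptide markers had medians of -0.38 in mutants, with 8 below 0, and -0.47 in controls, with 6 below 0, and the 5 markers of tanycytes, the glia that line the third ventricle, had -0.45, with 5 below 0, and -0.61, with 3 below 0. The summed ARC markers ran from 4239 to 8221 in mutant chow, 3781 to 4408 in mutant HFD, 3628 to 7920 in control chow and 2142 to 6467 in control HFD. Those of tanycytes ran from 202.0 to 319 in mutant chow, 166 to 233 in mutant HFD, 226 to 375 in control chow and 144 to 318 in control HFD. Their part in the sterol enzyme values was not tested.

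Of the 6 microglial markers, all were below 0 on HFD in mutants, with a median of -0.44, and 3 had an unadjusted p under 0.05, where 3.94% of all genes were lower at such a p. Their summed signal was 410.7 to 493.0 in mutant chow and 275.9 to 340.9 in mutant HFD. Csf1r and C1qa, of this list, differed by -0.68 ± 0.17 (SE) and -0.96 ± 0.25 (SE) (adjusted p = 0.564 for both). In controls the median was 0.10. The part of microglia in the values of the efflux list was not tested.

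Within groups, the sterol enzymes did not vary as a unit. Over the 153 pairs of sterol enzymes the median Pearson correlation of group-centred log2 values over the 12 libraries was -0.0043, and it was 0.034 over the 162 pairs of a sterol with a fatty acid enzyme and 0.36 over the 36 fatty acid pairs. The highest sterol pair was Acat2 with Mvk at 0.88 and the lowest was Pmvk with Sqle at -0.79. Above 0.7 lay 7 of the 153 sterol pairs, 5 of the 162 mixed pairs and 7 of the 36 fatty acid pairs. With every other gene tested, 7939 of 283860 pairs of sterol enzymes lay above 0.7, the highest at 0.98. For fatty acid enzymes this held for 7531 of 141930 pairs, the highest at 0.99. All these pairs share their libraries and are given as a description.

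**Figure D4:**
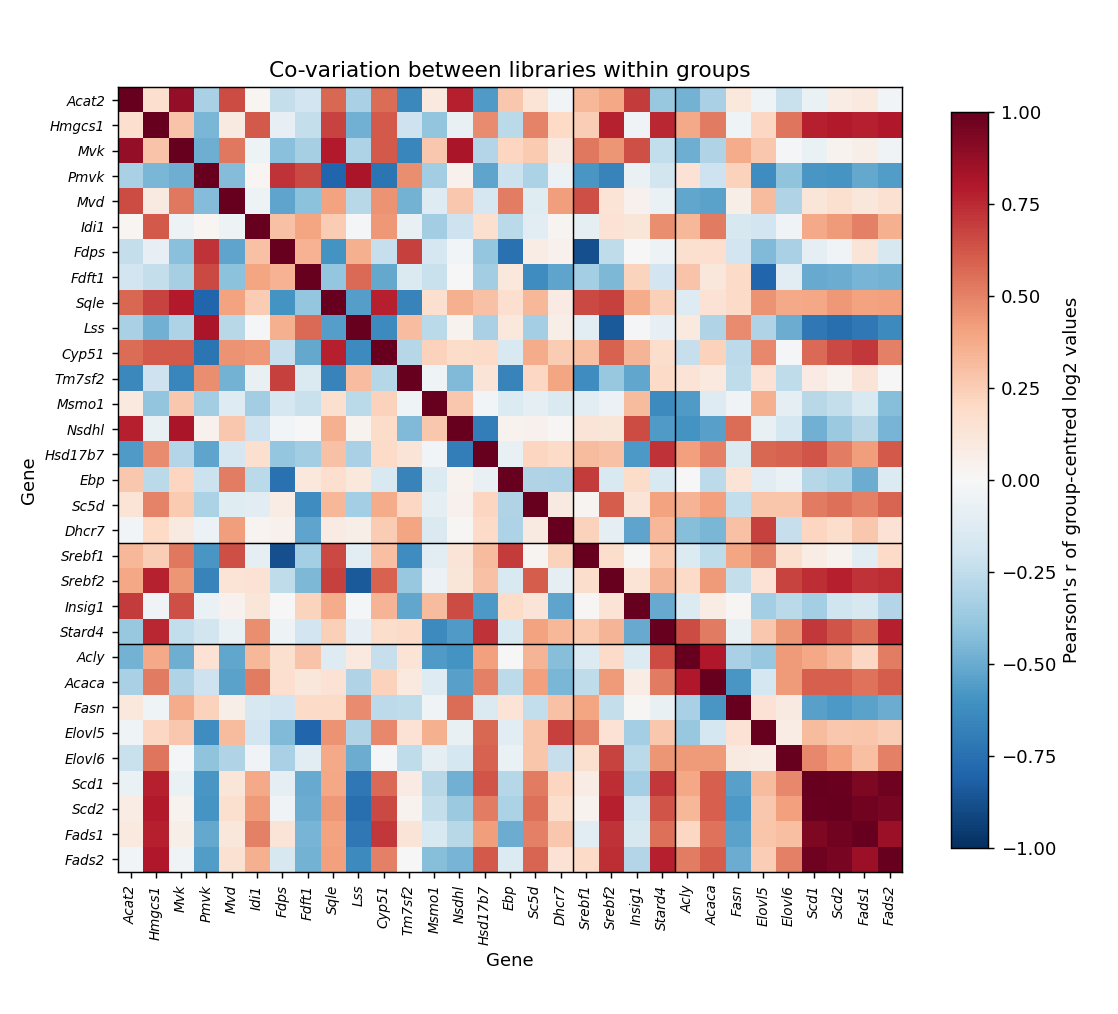
Pearson correlation (colour, from -1 in blue to 1 in red) between each pair of the 31 genes over 12 libraries, after subtracting the group mean; black lines part sterol enzymes, regulators and carrier, and fatty acid enzymes. The desaturases Scd1, Scd2, Fads1 and Fads2 form the dark red block at the lower right, with correlations of 0.86 to 0.98, and the sterol block is mixed.

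The 4 desaturases stood apart, a group picked out after the values had been seen. Their 6 pairwise correlations ran from 0.86 to 0.98, the highest between Scd1 and Scd2. Fatty acid enzymes reached up to 0.99 with other genes tested, so values of this size are not particular to these pairs. All 4 genes lie on chromosome 19 in GRCm38: Fads2 (chr19:10062765-10101746, minus strand) and Fads1 (chr19:10182888-10196877, plus strand) are divergent neighbours whose starts are 81142 bp apart, and Scd2 (chr19:44293674-44306864, plus strand) and Scd1 (chr19:44394455-44407879, minus strand) are separated by 87591 bp. Of the sterol enzymes Hmgcs1 followed them most closely, at 0.80 with Fads2 and 0.79 with Scd2, and Lss went against Scd2 at -0.75.

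The same 4 genes tracked the astrocyte marker level, the mean log2 value of Gfap, Aqp4, Slc1a3, Slc1a2, Aldh1l1, Gja1 and Gjb6. This level was 6.95, 6.31 and 6.71 in control chow, 6.38, 6.93, 6.68 and 6.90 in mutant chow, 7.27 and 6.34 in control HFD and 6.39, 6.72 and 7.25 in the libraries labelled mutant HFD. The score was compared with each of the 31 genes, as were 9 other marker lists, which made 310 relations with Benjamini-Hochberg adjustment. For Scd1 Pearson's r was 0.956 and Spearman's rho 0.986 over the 12 libraries, each with a permutation p of 1e-05, the smallest 100000 resamples can give, and an adjusted p of 0.0015. For Scd2 they were 0.947 and 0.979 with the same p-values. Fads1 had r = 0.836 and rho = 0.888 (permutation p of 0.00053 and 0.00035, adjusted 0.033 and 0.034), and Fads2 had r = 0.855 and rho = 0.881 (permutation p of 0.00024 and 0.00044, adjusted 0.025 and 0.034). These were the 4 relations of 310 that passed by both measures.

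Without control HFD 1 and mutant HFD 3, which had the highest astrocyte level and lay farthest from the median, r was 0.954 for Scd1, 0.899 for Scd2, 0.716 for Fads1 and 0.731 for Fads2, and after subtracting group means it was 0.967, 0.960, 0.929 and 0.913. Acaca was related to the ARC neuropeptide markers by Pearson's r of -0.847 (permutation p of 0.00045, adjusted 0.033) but not by Spearman's rho of -0.790 (permutation p of 0.0037, adjusted 0.23). No sterol enzyme passed with any of the 10 lists. The astrocyte score was also used as a covariate, added after the values had been seen. With it the sterol enzyme median for diet was 0.20 in mutants and 0.17 in controls. The fatty acid enzyme median was 0.073 and 0.18. The part of astrocytes in these values was not tested.

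**Figure D5:**
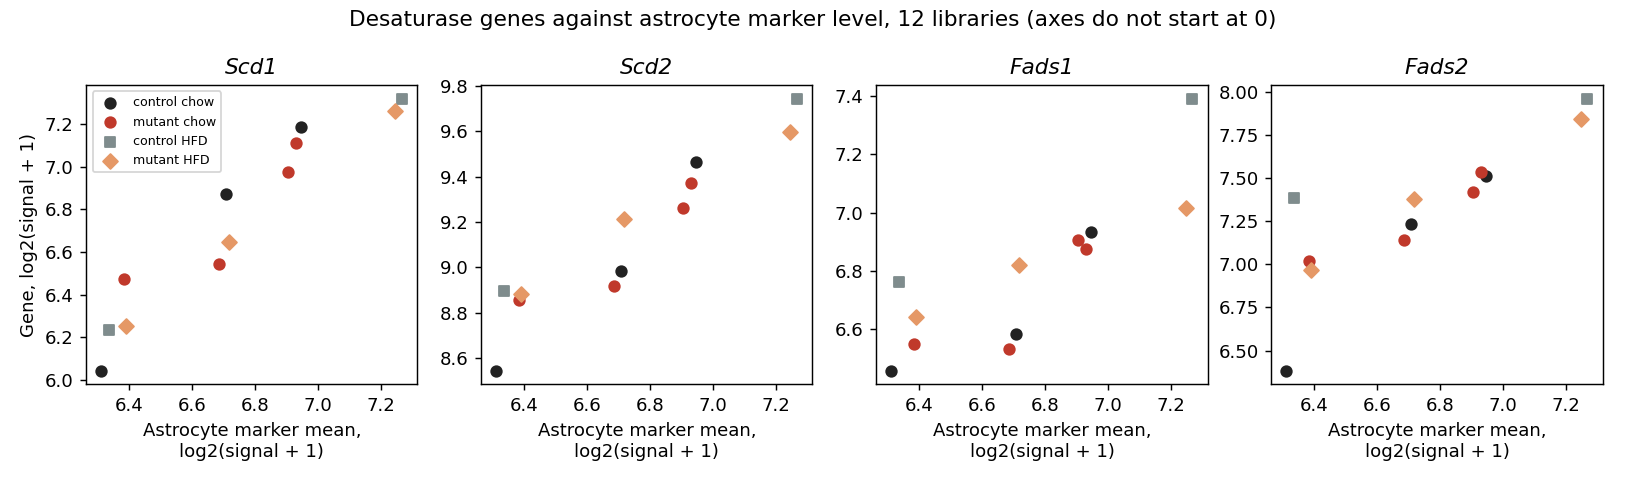
Log2(signal + 1) of the 4 desaturase genes (vertical axes) against the mean log2(signal + 1) of 7 astrocyte markers (horizontal axes) in 12 libraries, coloured by group; axes do not start at 0. In each panel the genes are high in the libraries with high astrocyte markers, control HFD 1 and mutant HFD 3, and lowest in control chow 2.

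The promoters of the sterol enzymes shared a feature that the choice of genes did not use. The RefSeq promoter table (GRCm38.p6) held 24 of the 31 genes and not Fdps, Fdft1, Sqle, Stard4, Scd1, Scd2 or Fads1. In the 250 bases before the start, CCAAT, the core of the site of NF-Y, a factor known to act beside SREBP, was searched on both strands, where it reads ATTGG on the other. It was present for 14 of 15 sterol enzymes (93.3%), all 3 regulators and 2 of 6 fatty acid enzymes (33.3%), and for 37.5% of all genes with a promoter and 39.8% of those tested here. At least 2 copies were present for 9 of 15 sterol enzymes (60%), against 14.2% of the genes tested. TCACNCCAC, a form of the sterol regulatory element, was found on either strand for 1 of the 24, Hmgcs1, and for 1.23% of the genes tested. Only these letters in these 250 bases were searched, so a gene without a match is not shown to lack the element. Acat2 was the sterol enzyme without CCAAT in this window, and Elovl5 was the fatty acid enzyme beside Fasn that had it. The promoters of 3 sterol genes, from early and late steps, and that of Fasn are shown to the start site, with these motifs in capitals. They lie at chr13:119690151-119690350, plus strand for Hmgcs1, chr5:114444079-114444268, plus strand for Mvk, chrX:8193513-8193702, minus strand for Ebp and chr11:120824548-120824657, minus strand for Fasn, and no annotated exon falls in these windows.
Hmgcs1: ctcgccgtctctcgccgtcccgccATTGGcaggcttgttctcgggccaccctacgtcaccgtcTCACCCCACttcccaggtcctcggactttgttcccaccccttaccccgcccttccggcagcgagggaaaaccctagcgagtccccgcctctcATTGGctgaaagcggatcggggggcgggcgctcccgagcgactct
Mvk: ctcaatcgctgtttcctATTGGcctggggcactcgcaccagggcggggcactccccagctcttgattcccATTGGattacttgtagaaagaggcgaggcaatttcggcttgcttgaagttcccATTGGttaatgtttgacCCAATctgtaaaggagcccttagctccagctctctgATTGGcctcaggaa
Ebp: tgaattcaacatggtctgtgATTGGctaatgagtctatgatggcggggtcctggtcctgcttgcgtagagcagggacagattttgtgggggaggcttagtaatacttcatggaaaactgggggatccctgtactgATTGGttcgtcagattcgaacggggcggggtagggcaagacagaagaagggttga
Fasn: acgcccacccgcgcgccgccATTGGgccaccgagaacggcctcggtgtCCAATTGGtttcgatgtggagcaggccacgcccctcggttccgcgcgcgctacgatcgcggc

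In Hmgcs1 the sterol element core began 137 bases before the start, with CCAAT on the other strand at 237, which lies outside the stretch shown, at 176 and at 45. In Mvk there were 5 copies, at 173, 120, 67, 50 and 14 bases. In Ebp the copies were at 170 and 55 bases. In Fasn 3 copies were at 90, 62 and 59 bases, and the last 2 overlap each other. A match is a run of letters and not a measured site.

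Some of these values are uncertain by annotation. Exons of 10 of the 31 genes overlap those of another gene. Hmgcs1 shares 557 exon bases with the antisense gene Gm48342, and Elovl6 shares 34 with the antisense gene Gm35986. Others are Fdft1 with Ctsb, Cyp51 with Akap9, Fdps with Gm43738, Tm7sf2 with Vps51 and Lss with the antisense gene 4930483K19Rik. Idi1, Srebf1 and Scd2 overlap other genes as well. Whether strand was used in quantification is not given in the sources used here, so the split of reads in such pairs cannot be judged.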

How the data were processed

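RNA was measured in 12 ARC libraries grouped by genotype and diet as the labels give them. Per the submitters' processing notes and methods, the authors quantified reads with kallisto and normalised them in sleuth on mm10, and the deposited values are an abundance signal per gene, of unstated exact scaling. Versions, annotation release, gene filter and strand use are not given in the sources used here. The signal is no count, so counting error and detection floors cannot be given. 0 columns were left unmapped and no pair of libraries was identical. Symbols came from GENCODE M21 (GRCm38), with 16633 genes matched and 7 not.

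Values were transformed as log2(value + 1), and genes with a value of at least 1 in at least 2 libraries were kept (15801). limma 3.58.1 in R 4.3.3, with a mean-variance trend and 1 mean per group, was fitted across the 12 libraries. Tests were two-sided, and Benjamini-Hochberg adjustment ran over all genes tested at 0.05. A pseudocount of 1 shrinks differences of low genes. The script was tested on simulated data. Group values are mean ± SD of the signal.

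Correlations with marker scores, added after the values had been seen, used permutation tests with 100000 resamples. Genes were named by rule: all 31, with values in every library for Hmgcs1, Sqle, Insig1, Srebf1, Srebf2, Fasn, Acaca, Scd1 and Scd2 and for up to 6 genes per comparison with an unadjusted p under 0.05. Genes of other lists were named at an unadjusted p under 0.01; Abca1, Cyp27a1 and Scap, at higher p, were named after their values were seen, as were further members shown library by library. The members, lists and tests were chosen with earlier results of these data known. Alternatives were quantile normalisation, rescaled columns, no trend, other filters, a pseudocount of 0.1, only the groups compared, marker scores as covariates, array weights and leaving out each library.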

Additional observations from a re-analysis of the deposited data

Results flagged for a closer look

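In mutant chow, the only group of 4 libraries, 2 of 36 measures had 1 library far from the other 3, where chance alone gives about 1 in 20. The signal of Fdps was 45.3 in mutant chow 3, while mutant chow 1, 2 and 4 held 90.2, 91.2 and 96.9, and the gap took 0.869 of the whole range. This library also had the most genes listed at 0 and the highest Srebf1. The signal of Stard4 was 22.6 in mutant chow 4, while the other libraries held 13.1, 13.4 and 11.8, and the gap took 0.853 of the range.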

How the results depend on the processing

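No setting tried brought any of the 31 genes past an adjusted p of 0.05. Over all settings the smallest adjusted p was 0.458, with array weights. Of 390 counts and medians recomputed, 334 moved by less than the spread between libraries or, for counts, by under 1.5 times. Such a movement can include a change of sign. The fatty acid median for genotype on chow ran from -0.14 to 0.18 around 0.06, and all 22 of its settings were counted among those that moved less. All 43 recomputed values of Hmgcs1 for averaged diet and Elovl6 for diet in controls stayed above 0. Their unadjusted p was under 0.05 in 8 of 21 settings for Hmgcs1 and in 19 of 22 for Elovl6, with values up to 0.14 and 0.15. The median difference of the sterol enzymes between diets stayed above 0 in both genotypes throughout, between 0.15 and 0.25 in mutants and between 0.13 and 0.34 in controls.

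With libraries rescaled to the same total, the sterol median was 0.34 for diet in controls, 0.024 for genotype on chow, -0.13 on HFD, -0.14 for the interaction and 0.23 for diet averaged over genotypes, beside all-gene medians of 0.12, 0.10, -0.08, -0.18 and 0.03, and 1 member had an unadjusted p under 0.05 for genotype on HFD. With the oligodendrocyte score as covariate, the interaction's sterol median was 0.086 and the averaged diet contrast had 0 members at an unadjusted p under 0.05. With the astrocyte score, that count was 3 for diet in controls, 3 for averaged diet, 1 for the interaction and 1 for genotype on HFD. For diet in mutants it was 1 with quantile normalisation, 1 with only the groups compared and 3 with array weights. For diet in controls it was 0 with only the groups compared. For averaged diet it was 2 with quantile normalisation, a mean of at least 5 or a pseudocount of 0.1. Beyond the rescaling and the covariates, the cause was not tested. These counts, and those below with 1 library left out, are given without the share of all genes in the same setting. They are therefore not read as a result about the members.

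Leaving out 1 library at a time gave 0 to 1 members at an unadjusted p under 0.05 for diet in mutants, 0 to 4 for diet in controls, 0 to 1 for genotype on either diet, 0 to 3 for the interaction and 0 to 4 for averaged diet. The sterol median then ran from 0.15 to 0.23 for diet in mutants, 0.13 to 0.20 for diet in controls, -0.10 to -0.00094 for genotype on chow and -0.066 to 0.033 on HFD, and -0.011 to 0.077 for the interaction. The fatty acid median ran from 0.10 to 0.74 for diet in controls, -0.63 to 0.052 for the interaction and -0.57 to 0.024 for genotype on HFD. With control HFD reduced to 1 library, that library was assumed to vary like the other groups. No paired analysis was possible because the replicate numbers only follow the order of deposition.

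Unknown depth, 2 control HFD libraries and an Esr1 level that does not separate the libraries labelled mutant HFD from controls limit all comparisons on HFD.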
